A study of Homo sapiens with 11 samples.

Results

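The genes described are 10 immediate early genes, chosen by symbol from the 60605 features of the table: EGR1, EGR2, EGR3, FOS, FOSB, FOSL1, JUN, JUNB, ATF3 and IER3. All 10 were found, and all 10 passed the filter on low values, so that each was tested. They were measured by sequencing of polyA RNA in 11 libraries of ARPE-19 cells. This human cell line derives from the retinal pigment epithelium (RPE), the pigmented layer behind the photoreceptors. Stable ARPE-19 cells expressed an introduced open reading frame (ORF) for 4 days. The ORF was GFP, a fluorescent protein and the control (3 libraries), Oct4, Sox2, Klf4, or the 3 factors Oct4, Sox2 and Klf4 together, called OSK (2 libraries each). Every group, GFP included, thus carried an introduced ORF. The library names of all factor lines, and not of GFP, carry the tag mC. Its meaning is not given in the sources used here, and what it stands for cannot be told apart from the factors. The promoter that drives it, the species of the ORFs and the number of clones per line are not given in the sources used here. The labels do not say that the libraries of a group came from separate cultures, so p-values measure the spread between these libraries, which may be technical.

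Immediate early genes are transcribed within minutes of a growth factor, a stress or another stimulus, without new protein synthesis, and their mRNAs are short-lived. Signals through the ERK kinases act on serum response factor (SRF), which binds the CArG box, and on its partners of the ELK family. They act also on factors of the CREB family, which bind the cAMP response element (CRE). The EGR proteins are zinc finger factors. FOS and JUN proteins pair through leucine zippers to form AP-1, and ATF3 is a related leucine zipper protein that often represses. The common name holds only in part: FOSL1 is usually counted as a delayed early gene, induced in part by AP-1 itself, and IER3 encodes a regulator of survival and signalling, not a transcription factor.

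Promoter sequence is shown for EGR1 and JUN, which fell in every line, and for their relatives EGR2 and JUNB, which rose in at least 1, with the elements through which the family is usually described. RefSeq windows (build GRCh38.p14) from 250 bases before to 50 bases after the start were matched for 7 of the 10 genes, in 10 windows. EGR3, FOSL1 and IER3 were not matched. Capitals mark the CArG box in EGR1, the CArG box and the octamer ATGCAAAT in EGR2, the CRE-like TGANNTCA and the KLF-like CCACNCCC in JUN, and TATAAA in JUNB. EGR2 and ATF3 have several windows, and the EGR2 window printed is the one that holds a CArG box. The windows lie at chr5:138465229-138465528 (plus strand) for EGR1, chr10:62816317-62816616 (minus) for EGR2, chr1:58783998-58784297 (minus) for JUN and chr19:12791236-12791535 (plus) for JUNB, and run 5′ to 3′.
EGR1: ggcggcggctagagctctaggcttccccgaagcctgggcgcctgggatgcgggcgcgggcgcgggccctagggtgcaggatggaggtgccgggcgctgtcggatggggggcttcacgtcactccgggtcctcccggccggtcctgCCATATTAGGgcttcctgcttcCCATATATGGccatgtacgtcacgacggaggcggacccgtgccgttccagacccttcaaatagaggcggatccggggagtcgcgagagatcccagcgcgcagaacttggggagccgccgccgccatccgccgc
EGR2: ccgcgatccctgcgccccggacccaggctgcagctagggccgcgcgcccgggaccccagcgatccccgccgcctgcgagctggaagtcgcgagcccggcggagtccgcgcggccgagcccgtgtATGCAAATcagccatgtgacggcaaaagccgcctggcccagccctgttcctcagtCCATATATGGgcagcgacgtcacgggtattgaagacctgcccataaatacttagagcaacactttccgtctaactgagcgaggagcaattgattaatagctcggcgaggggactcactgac
JUN: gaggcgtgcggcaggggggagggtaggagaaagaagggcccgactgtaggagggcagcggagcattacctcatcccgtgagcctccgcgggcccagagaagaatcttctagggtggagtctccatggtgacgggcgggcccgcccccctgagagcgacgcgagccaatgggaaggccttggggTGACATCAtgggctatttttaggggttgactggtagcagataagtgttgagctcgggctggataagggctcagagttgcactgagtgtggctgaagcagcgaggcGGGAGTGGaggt
JUNB: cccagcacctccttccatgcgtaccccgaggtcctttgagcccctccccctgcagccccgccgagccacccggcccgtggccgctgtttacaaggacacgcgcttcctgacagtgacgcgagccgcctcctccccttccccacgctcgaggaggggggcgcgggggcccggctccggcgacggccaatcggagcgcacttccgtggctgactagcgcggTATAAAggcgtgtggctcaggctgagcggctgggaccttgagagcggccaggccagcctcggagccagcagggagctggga

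Both strands were searched for 8 motifs. A CArG box was in 2 of the 10 windows, at -105 to -96 and -83 to -74 from the start in EGR1 and at -71 to -62 in EGR2, against 1.29% of the 35116 windows in the table. TGANNTCA was in JUN and in 1 ATF3 window (11.5% of all windows). The AP-1 site TGANTCA, with 1 free base in place of 2, was in none of the 10 (7.71% of all). TATAAA was in FOS, FOSB, JUNB and 1 ATF3 window (11.5%). The EGR site GCGNGGGCG was in EGR1 and in another EGR2 window (9.43%), CCACNCCC only in JUN (17.2%), and ATGCAAAT only in the EGR2 window printed (1.77%). The Sox core ATTGTT was in none of the 10 windows (10.1%). These are matches of letters within 300 bases, with no measurement of binding.

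**Figure D1:**
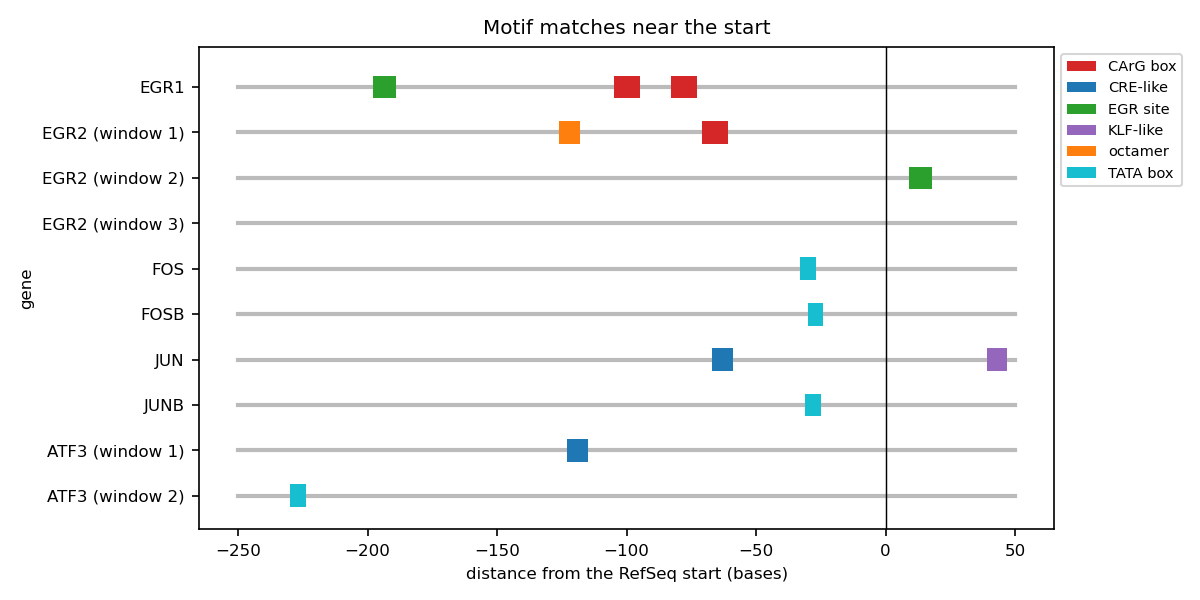
Motif matches in the 10 RefSeq windows of 7 genes, drawn by distance in bases from the start (0), with coloured blocks for the motif matches. CArG boxes appear in EGR1 and in 1 EGR2 window, and TATA boxes close to the start of FOS, FOSB and JUNB.

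The libraries held 15053300 to 19791775 reads each. Of the 11 libraries, 9 had a read at 25853 to 26971 features, whereas GFP replicate 1 had 42956 and OSK replicate 1 had 32493, and results are given without these libraries where that matters. The delivered factors were highest where labelled: POU5F1 (the gene of Oct4) was 255-fold above GFP in the Oct4 line, SOX2 470-fold in the Sox2 line and KLF4 321-fold in the Klf4 line, and 73.2-fold, 285-fold and 338-fold in OSK. Of 12 RPE markers, 10 had at least 10 normalised counts in each GFP library, among them PMEL, TYR and MITF, while RPE65 had at most 4.63 in any of the 11 libraries. The 12 markers summed to 33430 to 37123 normalised counts in GFP and less in every other line, lowest in OSK (15811 to 16115). Most of each sum was KRT8 and KRT18, and the markers did not all move alike. PMEL, TYR and MITF were lowest in the Sox2 line (PMEL 101 and 180, against 868 and 749 in OSK). OTX2 was above GFP (1804 to 1952) in the Klf4 line (2372 and 2267). Of the other lists, 5 fibroblast and mesenchyme markers summed to 10974 to 11572 in GFP and to 4573.5 to 5136.5 in OSK, most of it PDGFRB. Endothelial markers reached 124.1 and photoreceptor markers 54.6, both in GFP replicate 1, and immune markers summed to at most 15.1. The part of these markers in the results below was not tested, and in bulk RNA fewer expressing cells and less RNA per cell cannot be told apart.

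In every line more of the 10 genes were lower than higher against GFP. Of 40 gene and line pairs, 25 were lower, 5 were higher and 10 did not pass the test (limma, adjusted p under 0.05 over 18828 genes). EGR1, FOS, FOSB and JUN fell in all 4 lines. JUNB rose with Klf4 and OSK, EGR2 and IER3 rose with Sox2, and ATF3 rose with Oct4. Of all tested genes 3.47% were lower in all 4 lines, and 3.36% were higher, as was none of the 10. With Oct4, 5 of the 10 genes fell and 1 rose, where 37.3% of all tested genes were called, 17.2% lower and 20.1% higher. With Sox2, 5 fell and 2 rose (41.6% of all called, 19.9% lower and 21.7% higher). With Klf4, 8 fell and 1 rose (33.5% of all called, 16.0% lower and 17.6% higher). With OSK, 7 fell and 1 rose (39.7% of all called, 20.0% lower and 19.7% higher). The libraries of line and GFP did not overlap for 56.4%, 60.0%, 54.0% and 58.5% of all tested genes with Oct4, Sox2, Klf4 and OSK, so that separate groups are common in these data. The median log2 change of the 10 genes was -0.70, -0.40, -1.54 and -1.35 in the Oct4, Sox2, Klf4 and OSK lines, against -0.02, -0.02, -0.02 and -0.01 over all genes tested. The 4 comparisons share the GFP libraries. Without GFP replicate 1 and OSK replicate 1, 6 genes fell and 1 rose with Oct4, 7 fell and 3 rose with Sox2, and the counts with Klf4 and OSK were as before. Among the 3 was EGR3, which then passed the filter only through the Sox2 libraries.

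**Figure D2:**
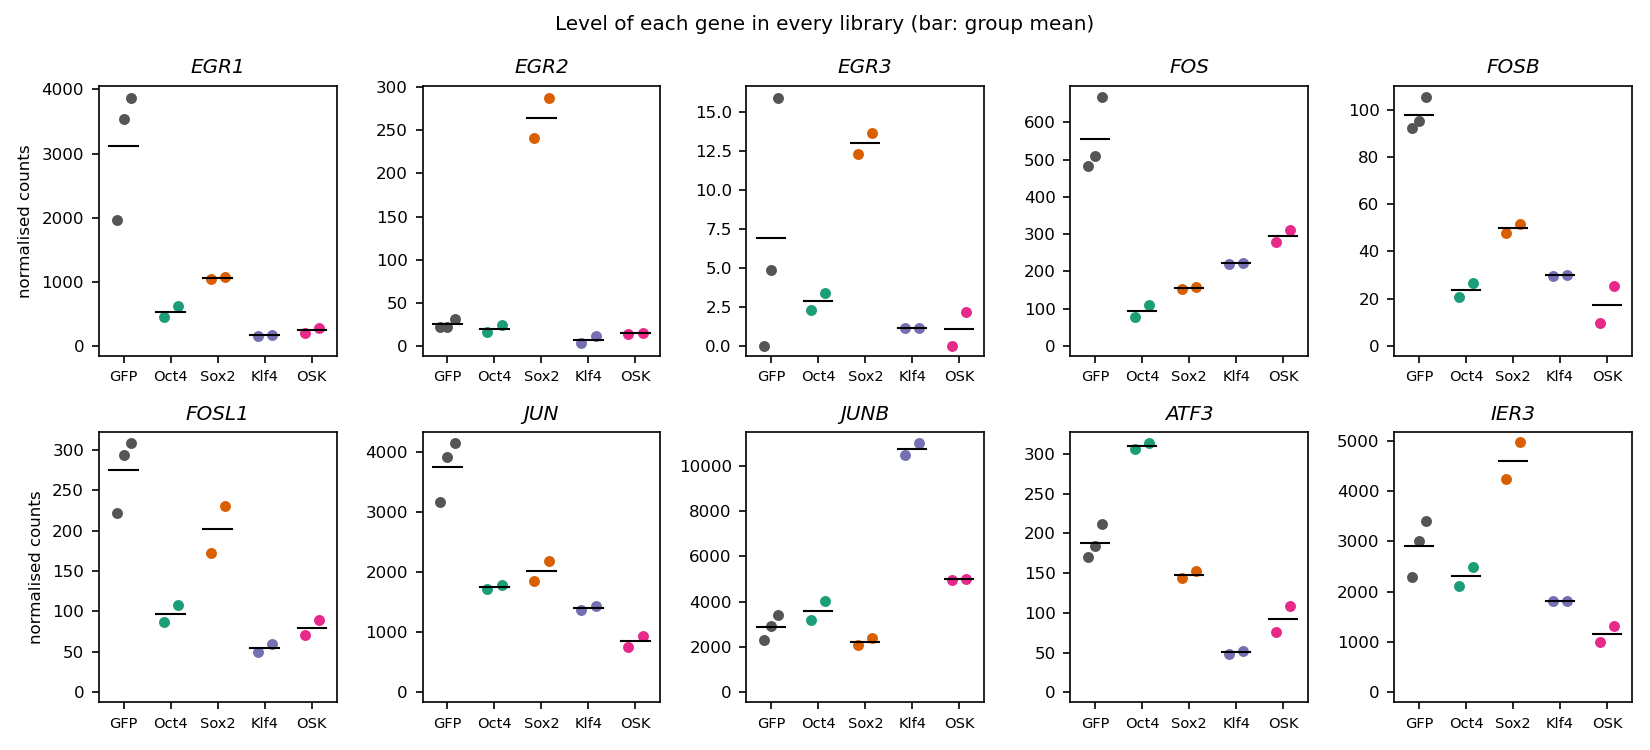
Normalised counts (y axis, from 0 on a linear scale) of the 10 genes in each of the 11 libraries, by group, with points sorted by value within a group and a bar at the group mean. EGR1, FOS, FOSB and JUN are highest in GFP, EGR2 stands out in Sox2, and JUNB in Klf4.

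The EGR genes were examined first. EGR1, a zinc finger factor induced by growth factors and stress, had 1963, 3540 and 3868 normalised counts in GFP replicates 1, 2 and 3. It had 447 and 617 in the Oct4 line, 1046 and 1079 in the Sox2 line, 177 and 162 in the Klf4 line and 283 and 207 in OSK. The order of the group means, GFP, Sox2, Oct4, OSK and Klf4, held without overlap between the libraries of neighbouring groups. The log2 change from GFP was -2.51 (SE 0.22) with Oct4, -1.49 with Sox2, -4.14 with Klf4 and -3.62 with OSK, with limma adjusted p-values from 1.11e-09 to 3.99e-05. The Klf4 mean was 5.43% of the GFP mean. The log2 difference of OSK was -1.12 from Oct4 (limma adjusted p = 0.00138) and -2.13 from Sox2 (2.74e-06). OSK and Klf4 were not separated by the test (log2 difference 0.51, 95% interval 0.00 to 1.02; limma adjusted p = 0.155).

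EGR2, which shares the zinc finger domain and is best known from myelinating cells and lymphocytes, took the opposite course with Sox2. It had 21.9, 31.4 and 22.4 normalised counts in GFP and 287 and 241 in the Sox2 line, a 10.5-fold higher mean (log2 change 3.35, SE 0.41; limma adjusted p = 5.52e-06). The Sox2 libraries stood far above every other library. The Oct4 libraries had 24.4 and 16.0, those of OSK 15.2 and 14.3, and those of Klf4 3.47 and 11.4. With OSK the level was thus 17.9-fold below that of Sox2 alone (log2 difference -4.07, SE 0.44; limma adjusted p = 2.01e-06). OSK did not differ detectably from GFP (-0.72, 95% interval -1.58 to 0.15; limma adjusted p = 0.183), nor did Oct4 (-0.31, interval -1.18 to 0.55; limma adjusted p = 0.586). SOX2 itself had a mean of 29120 normalised counts in the Sox2 line and 17670 in OSK (limma adjusted p = 0.008). The part of the SOX2 level in the EGR2 difference was not tested. EGR2 was lower with Klf4 (log2 change -1.79, limma adjusted p = 0.00274), on 3 and 10 reads. Without Klf4 replicate 1 that change was -1.06 (limma adjusted p = 0.068, over a range of 0.000343 to 0.068 in the alternatives).

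EGR3, a close relative often induced together with EGR2, was near the detection limit. It had 15.9, 0 and 4.86 normalised counts in GFP and 12.3 and 13.7 in the Sox2 line. The other lines had at most 3.43, which is 3 reads. It passed the filter through GFP replicate 1 and the Sox2 libraries only, and no comparison passed the test. Summed over libraries, 27 reads with Sox2 stood against 21 in GFP, a ratio of 1.89 after allowing for the number and depth of the libraries (95% interval 1.03 to 3.51). Against 5 with Oct4, 2 with Klf4 and 2 with OSK the ratios were 4.55 (95% interval 1.73 to 15.1), 11.4 (2.87 to 99.0) and 12 (3.02 to 104). These intervals cover counting error only, while the GFP libraries had 16, 0 and 5 reads. Since the filter rested in part on the Sox2 libraries, the ratios are a description and are not read as results. Without GFP replicate 1 EGR3 passed the filter only through the Sox2 libraries, in which it was high. Its difference between Sox2 and GFP in that setting is therefore not read as a result.

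FOS, FOSB and FOSL1 encode AP-1 subunits that need a JUN partner. FOS had 484, 511 and 668 normalised counts in GFP, 77.8 and 111 in Oct4, 157 and 153 in Sox2, 220 and 223 in Klf4 and 280 and 312 in OSK. Each factor line lay below every GFP library and no neighbouring groups overlapped. The order differed from that of EGR1: FOS was lowest with Oct4 (log2 change -2.55, SE 0.16; limma adjusted p = 3.88e-09) and nearest to GFP in OSK (-0.89, SE 0.16; limma adjusted p = 0.000267). OSK exceeded Oct4 by 1.66 and Sox2 by 0.93 (limma adjusted p = 1.15e-06 and 0.000426). It did not differ detectably from Klf4 (0.42, 95% interval 0.05 to 0.78; limma adjusted p = 0.105), but passed when only these groups were fitted (0.0451, over a range of 0.0451 to 0.392).

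FOSB, a FOS relative that persists after repeated stimulation as a spliced form, had 95.3, 105 and 92.4 normalised counts in GFP. It had 26.7 and 20.6 with Oct4, 51.6 and 48.0 with Sox2, 30.1 and 29.7 with Klf4, and 9.76 and 25.3 with OSK. All factor libraries lay below GFP, and the OSK and Oct4 libraries overlapped. The log2 changes from GFP were -2.01, -0.96, -1.67 and -2.55 for Oct4, Sox2, Klf4 and OSK (SE 0.33 each; limma adjusted p = 0.000162, 0.0294, 0.000958 and 1.32e-05). The Sox2 call was lost under 6 alternatives, with adjusted p-values from 0.00308 to 0.138 and log2 changes from -1.01 to -0.90. Leaving out a library ended it for GFP replicates 2 and 3 (limma adjusted p of 0.0791 and 0.0559) and Sox2 replicates 1 and 2 (0.101 and 0.138). It was lost also with no filter (limma adjusted p = 0.0597) and with the replicate number as a block (0.0554).

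FOSL1 encodes FRA-1, an AP-1 subunit sustained by ERK signalling. It had 221, 293 and 308 normalised counts in GFP, 108 and 87.0 in Oct4, 173 and 230 in Sox2, 60.2 and 50.3 in Klf4 and 88.9 and 70.4 in OSK. The Sox2 libraries overlapped those of GFP, and the OSK libraries those of Oct4. FOSL1 fell with Oct4 (log2 change -1.48), Klf4 (-2.28) and OSK (-1.77; SE 0.19 each, limma adjusted p from 1.93e-07 to 1.66e-05). The Sox2 difference of -0.44 (95% interval -0.85 to -0.03) did not pass (limma adjusted p = 0.0801). It passed without GFP replicate 1 (-0.59, limma adjusted p = 0.0222, over a range of 0.0222 to 0.513 in the alternatives).

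The JUN genes moved apart. JUN, the AP-1 subunit that can activate its own gene, had 3171, 3912 and 4159 normalised counts in GFP, 1729 and 1792 in Oct4, 1851 and 2185 in Sox2, 1380 and 1439 in Klf4, and 764 and 940 in OSK. Its groups did not overlap. The log2 change was -1.08 with Oct4, -0.89 with Sox2, -1.40 with Klf4 and -2.13 with OSK (SE 0.11 each, limma adjusted p from 5.63e-10 to 7.34e-06). OSK was lower than each single-factor line, by 1.05, 1.25 and 0.73 for Oct4, Sox2 and Klf4 (limma adjusted p = 3.47e-06, 5.42e-07 and 0.000332). Of the 10 genes, JUN and IER3 were the 2 that were lower with OSK than with GFP and with each single factor.

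JUNB, a JUN relative that activates less strongly and can oppose JUN, had 2321, 3414 and 2949 normalised counts in GFP. It had 10469 and 11025 in the Klf4 line, above every other library, and 4983 and 5028 in OSK. The log2 change was 1.91 with Klf4 (SE 0.13, 3.71-fold; limma adjusted p = 1.39e-08) and 0.81 with OSK (1.73-fold; limma adjusted p = 9.68e-05). OSK lay below Klf4 by 1.10 on the log2 scale (limma adjusted p = 2.65e-05). KLF4 itself was at 23170 ± 1460 normalised counts (SD, n = 2) in the Klf4 line and 24340 ± 189 (n = 2) in OSK. The part of the KLF4 level in the JUNB difference was not tested. JUNB in the Oct4 line (4043 and 3175) and the Sox2 line (2398 and 2087) overlapped GFP. The Oct4 difference was 0.33 (95% interval 0.05 to 0.60; limma adjusted p = 0.0581). It passed with a filter on mean CPM (limma adjusted p = 0.0498), without GFP replicate 2 (0.00782) and without Oct4 replicate 2 (0.0269), over a range of 0.00782 to 0.519. The Sox2 difference of -0.35 passed (limma adjusted p = 0.0366) but was lost under 9 alternatives, with adjusted p-values from 0.000277 to 0.281 and log2 changes from -0.50 to -0.23. Among these were edgeR (adjusted p = 0.0523), DESeq2 (0.0966), the replicate number as a block (limma adjusted p = 0.103) and leaving out GFP replicate 2 or 3 or either Sox2 library (limma adjusted p = 0.151, 0.0905, 0.0528 and 0.281).

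**Figure D3:**
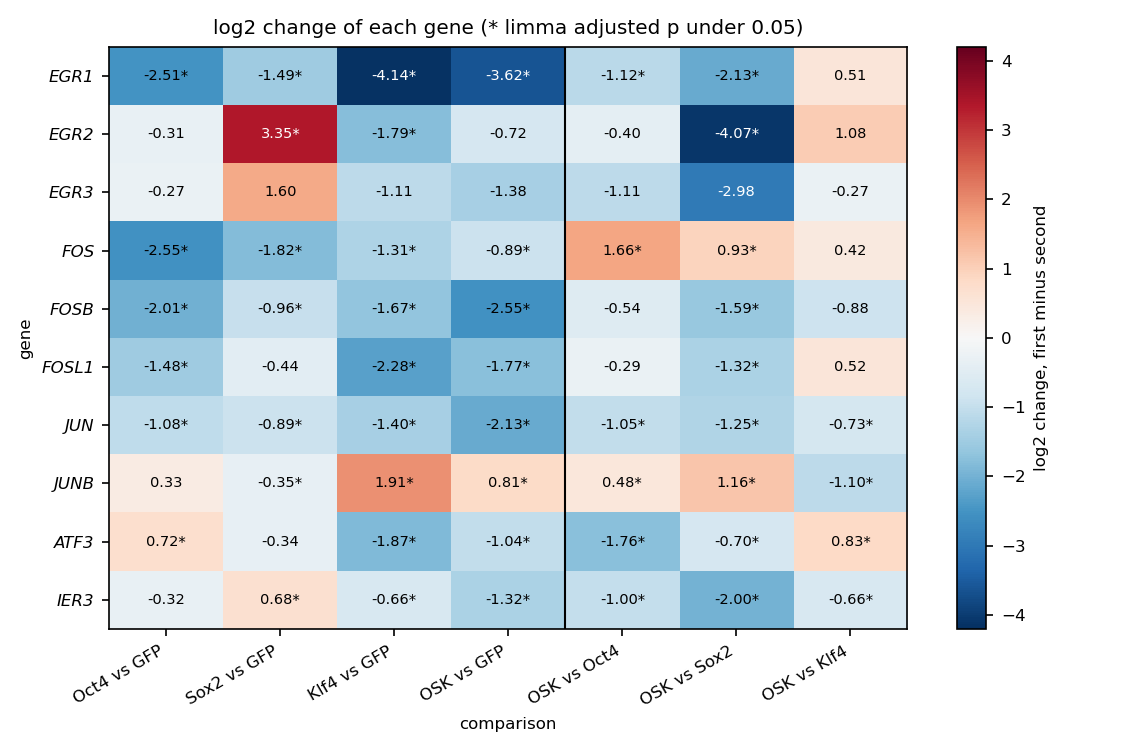
Log2 change (colour and number) of the 10 genes in 7 comparisons, each line against GFP on the left and OSK against each single factor on the right of the black line, with a star where the limma adjusted p was under 0.05. EGR1, FOS, FOSB and JUN are blue in the 4 comparisons with GFP, and EGR2 with Sox2 (3.35) and JUNB with Klf4 (1.91) are the deepest red.

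Related genes were also compared within each library, as a ratio of value + 1. The added 1 moves the ratio where a gene is low, as for EGR2 in Klf4 and FOSB in OSK. The log2 ratio of JUNB to JUN, relative to its GFP mean, was -0.07, 0.18 and -0.11 in GFP. It was 3.30 and 3.32 in the Klf4 libraries, 3.08 and 2.80 in OSK, 1.61 and 1.21 in Oct4 and 0.75 and 0.31 in Sox2. All 8 factor libraries thus lay above the 3 GFP libraries. The ratio of EGR2 to EGR1 was also above GFP (at most 0.43) in all 8, from 1.54 in Klf4 replicate 1 to 4.70 and more in Sox2. The ratio of FOSL1 to FOS split the lines: it was 0.66 or more in the Oct4 and Sox2 libraries and -1.12 to -0.63 in those of Klf4 and OSK, with GFP between them. FOSB to FOS was lowest in OSK, at -2.23 and -1.09. These ratios are a description, with no test.

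**Figure D4:**
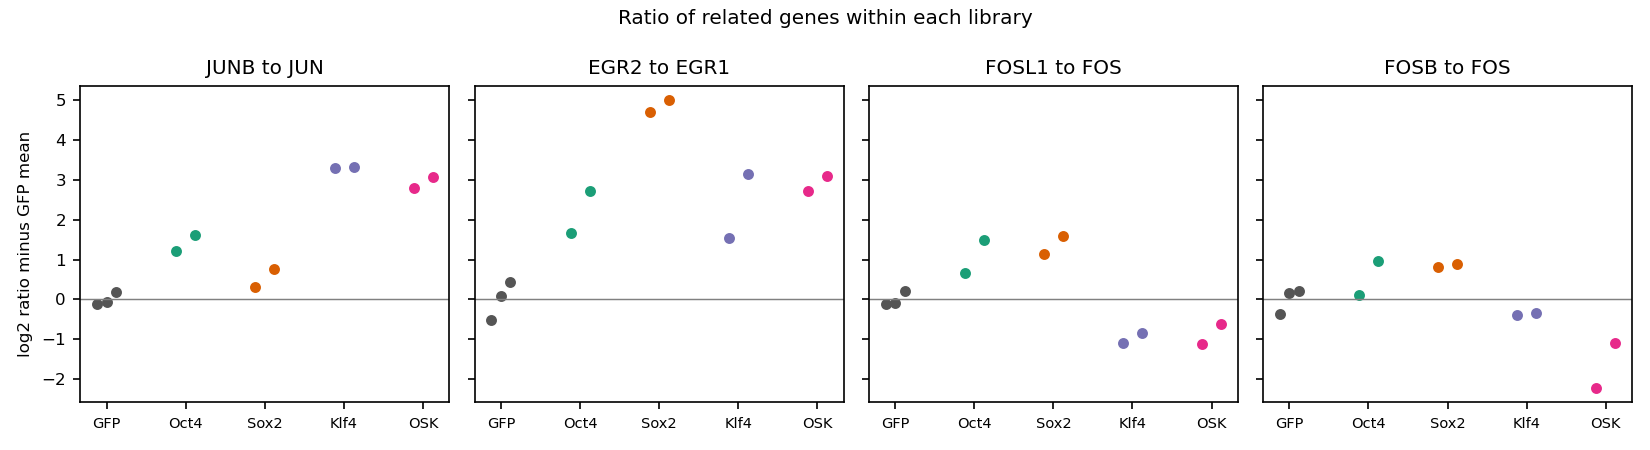
Log2 ratio of 4 pairs of related genes in each library, minus the mean of the 3 GFP libraries (y axis), by group, with a grey line at 0. JUNB to JUN is near 3 in Klf4 and OSK, and FOSL1 to FOS lies above 0 in Oct4 and Sox2 and below 0 in Klf4 and OSK.

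ATF3, induced by many stresses and by the integrated stress response, had 170, 211 and 184 normalised counts in GFP. It had 314 and 306 in Oct4, 144 and 152 in Sox2, 48.6 and 52.6 in Klf4 and 75.9 and 109 in OSK. No groups overlapped. It rose with Oct4 (log2 change 0.72, SE 0.17; limma adjusted p = 0.00279) and fell with Klf4 (-1.87) and OSK (-1.04; limma adjusted p = 3.26e-07 and 0.000107). The Sox2 difference was -0.34 (95% interval -0.69 to 0.01; limma adjusted p = 0.118). OSK stood above Klf4 by 0.83 (limma adjusted p = 0.00329), a call lost when only these groups were fitted (0.0543) and without OSK replicate 2 (0.0705), over a range of 0.00148 to 0.0705. OSK was lower than Sox2 by 0.70 (limma adjusted p = 0.00594), and by 0.44 without OSK replicate 1 (limma adjusted p = 0.103, over a range of 0.0019 to 0.103).

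IER3, an early response gene linked to cell survival and to feedback on ERK, had 2297, 3413 and 3017 normalised counts in GFP. It had 4967 and 4232 in the Sox2 line, above every other library, and 2493 and 2116 in the Oct4 line, which overlapped GFP. The Klf4 libraries had 1811 and 1825 and those of OSK 993 and 1329. IER3 rose with Sox2 (log2 change 0.68, SE 0.14; limma adjusted p = 0.00119) and fell with Klf4 (-0.66) and OSK (-1.32; limma adjusted p = 0.00202 and 1.95e-06). With Oct4 the difference was -0.32 (limma adjusted p = 0.0926). Without GFP replicate 1 it was -0.48 (limma adjusted p = 0.0021, over a range of 0.00189 to 0.469). OSK was below Sox2 by 2.00, Oct4 by 1.00 and Klf4 by 0.66 (limma adjusted p = 4.7e-08, 8.64e-05 and 0.00587). The last call was lost without OSK replicate 1 (-0.45, limma adjusted p = 0.119, over a range of 0.00486 to 0.119).

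GFP replicate 1 was the lowest of the 3 GFP libraries for 8 of the 10 genes, where it was lowest for 41.1% of all tested genes. For EGR1 it had 1963 normalised counts against 3540 and 3868. Without GFP replicate 1 the log2 change of EGR1 was -4.44 with Klf4 and -3.93 with OSK (limma adjusted p = 9.07e-14 and 1.96e-13).

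OSK was compared with each single factor to place the combination. Against the Sox2 line 7 of the 10 genes were lower and 2 higher (40.5% of all tested genes called, 20.5% lower and 20.0% higher). Against Oct4 4 were lower and 2 higher (40.3% called, 21.9% and 18.4%). Against Klf4 3 were lower (JUN, JUNB, IER3) and 1 higher (ATF3; 21.5% of all called, 11.9% and 9.56%). The libraries of OSK and of Oct4, Sox2 and Klf4 did not overlap for 70.4%, 71.3% and 60.4% of all tested genes. FOS and JUNB were the 2 genes higher in OSK than in both Oct4 and Sox2. The JUNB call against Oct4 (0.48, limma adjusted p = 0.0117) was lost without Oct4 replicate 2 (0.178) and without OSK replicate 1 or 2 (0.06 and 0.0685), over a range of 0.00251 to 0.178.

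Other immediate early genes were taken from a list of 50, of which 48 were tested. With Oct4 13 rose and 22 fell, with Sox2 16 rose and 23 fell, with Klf4 14 rose and 13 fell, and with OSK 16 rose and 22 fell. The median log2 change was -0.24, -0.39, -0.07 and -0.21 in the Oct4, Sox2, Klf4 and OSK lines. Called were 72.9%, 81.2%, 56.2% and 79.2% of the 48, against 37.3%, 41.6%, 33.5% and 39.7% of all tested genes. In the Oct4 line PHLDA1, an early gene of growth factor signalling, rose most (log2 change 3.95), followed by DUSP6, a phosphatase that inactivates ERK (2.97). In the Sox2 line DUSP6 (3.75) and EDN1, the endothelin precursor (3.20), were among the largest rises, while DUSP2, another MAP kinase phosphatase, fell by 4.88. The largest limma adjusted p among these named changes was 4.5e-08. DUSP6 also rose with OSK (0.70, limma adjusted p = 0.000444), and its log2 change with Klf4 was 0.00 (0.992).

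NR4A3, an orphan nuclear receptor, had the largest rise of the list in Klf4 (3.59) and OSK (3.29), with PLAUR, the urokinase receptor (2.75 and 2.15). PHLDA1 rose with OSK as well (2.64; limma adjusted p at most 6.84e-07 for the 3 genes). Smaller rises were called for PHLDA1 with Sox2 (1.54) and Klf4 (0.97) and for NR4A3 with Oct4 (1.20) and Sox2 (1.06). PLAUR rose also with Sox2 (1.12; limma adjusted p at most 0.00133 for these rises). ARC, a synaptic early gene also made elsewhere, fell by 2.69 with Oct4 and by 2.41 with Sox2 and rose by 2.74 with Klf4 and by 0.90 with OSK (limma adjusted p at most 0.00382). Among the largest falls in Klf4 were DUSP2 (-2.28) and PPP1R15A (-2.14), and the largest in OSK were DUSP2 (-3.93), GADD45B (-2.24) and KLF2 (-2.18; limma adjusted p at most 0.000237). In the Oct4 line ARC was followed by NFKBIA (-1.90) and IER5L (-1.81), and in the Sox2 line IER5L fell by 2.46 (limma adjusted p at most 3.44e-08). NFKBIA fell also with Sox2 (-1.91) and rose with Klf4 (0.39) and OSK (0.95; limma adjusted p at most 0.0125).

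**Figure D5:**
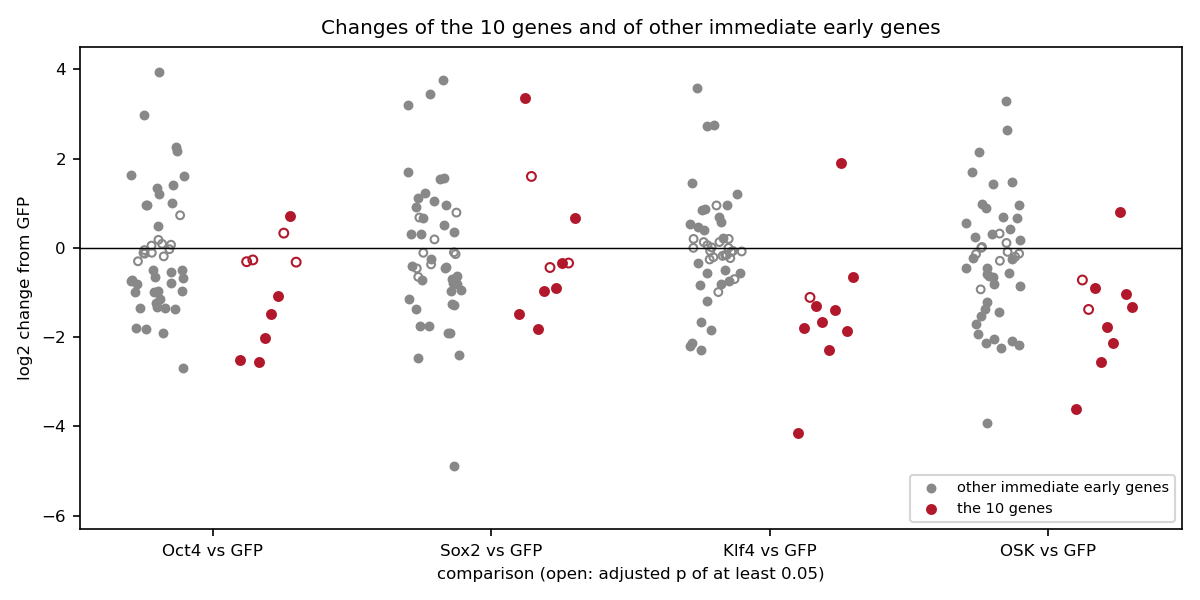
Log2 change from GFP (y axis) of 48 other immediate early genes (grey) and of the 10 genes (red) in the 4 lines, with open circles where the limma adjusted p was 0.05 or more. The other genes spread to both sides of 0 in every line, and most of the 10 genes lie below it.

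The other AP-1 subunits FOSL2 and JUND were singled out after their values were seen. FOSL2 had 4005, 4834 and 5011 normalised counts in GFP, 6526 and 6503 in Oct4, 8456 and 8812 in Sox2, 12434 and 12609 in Klf4 and 12586 and 12079 in OSK. It rose in all 4 lines, with log2 changes of 0.50, 0.91, 1.45 and 1.42 (limma adjusted p from 1.79e-09 to 0.000158), where FOS and FOSB fell in all 4. JUND fell with Oct4 (-0.97), Sox2 (-0.79) and OSK (-0.57) and rose with Klf4 (0.59; limma adjusted p from 4e-05 to 0.00341).

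The genes upstream of the family were taken from a list of 34 kinase cascade and SRF regulators, all tested. With Oct4 17 rose and 5 fell, with Sox2 16 rose and 3 fell, with Klf4 6 rose and 11 fell, and with OSK 10 rose and 8 fell. The median log2 change was 0.22, 0.21, -0.08 and 0.07. Called were 64.7%, 55.9%, 50% and 52.9% of the 34, against 37.3%, 41.6%, 33.5% and 39.7% of all tested genes. Of all tested genes 20.1%, 21.7%, 17.6% and 19.7% were higher, and 17.2%, 19.9%, 16.0% and 20.0% lower. The 6 rises with Klf4 were thus near the share of all genes. With Oct4 MRTFA, an SRF coactivator (1.43), SPRED1, an inhibitor of RAS signalling (1.42), and NAB1, a corepressor of EGR proteins (1.11), rose most. With Sox2 ELK4, an SRF partner (1.58), and MAP2K1, which encodes MEK1 (1.26), rose most. NAB1 rose also with Sox2 (0.77), Klf4 (0.87) and OSK (1.38). The limma adjusted p was at most 2.81e-06 for these rises. RPS6KA5, the kinase MSK1 that acts on CREB and histone H3, rose with Sox2 (0.85), Klf4 (1.07) and OSK (0.80; limma adjusted p from 0.00157 to 0.00954), and the Sox2 and OSK calls were lost without replicate 2 of the line (0.0636 and 0.13). SPRY1, a feedback inhibitor of the RAS and ERK pathway, fell in all 4 lines, by 1.06, 0.97, 1.45 and 0.66 (limma adjusted p at most 0.00739). The OSK call of SPRY1 was lost without OSK replicate 1 (-0.37, limma adjusted p = 0.184). SPRY4 (-1.05) and SPRY2 (-0.67) fell next with Klf4, and MAPK3, which encodes ERK1 (-1.12), and ELK3 (-0.65) with OSK. SPRY4 rose with Oct4 (0.84), SPRY2 with Oct4 and Sox2 (0.32 each), and ELK3 with Oct4 (0.62) and Sox2 (0.65; limma adjusted p at most 0.00434). ELK3 fell also with Klf4 (-0.40, limma adjusted p = 0.00618). Other named falls were RPS6KA1 with Oct4 (-0.73), Sox2 (-0.49) and OSK (-0.50), and NAB2 with Oct4 (-0.39) and OSK (-0.62). MAPK7 fell with Sox2 (-0.36), and MAPK14 rose in all 4 lines, by 1.01 with Oct4, 0.43 with Sox2, 0.66 with Klf4 and 0.58 with OSK. The limma adjusted p-values of these changes were at most 0.00468. NAB2 fell also with Klf4 (-0.26, limma adjusted p = 0.0395) and MAPK7 with Oct4 (-0.31, limma adjusted p = 0.0147). The MAPK7 call with Sox2 was lost without Sox2 replicate 2 (-0.33).

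Proliferation genes differed between the lines too. Of 18 such genes, 6 rose and 3 fell with Oct4, 14 rose with Sox2, 18 with Klf4 and 17 with OSK, with median log2 changes of 0.11, 1.05, 2.09 and 2.03. Of 14 heat shock genes, 11 fell and 2 rose with Oct4, 6 fell and 3 rose with Sox2, 7 fell and 1 rose with Klf4, and 5 fell and 1 rose with OSK. Of all tested genes 37.3%, 41.6%, 33.5% and 39.7% were called with Oct4, Sox2, Klf4 and OSK. The 42.9% of heat shock genes called with OSK was near that share. The part of either list in the changes of the 10 genes was not tested.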

How the data were processed

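The deposited table holds a normalised signal per gene. Its values show that the authors scaled gene counts by 1 factor per library and kept 2 decimals. STAR 2.7.1a and featureCounts 1.6.2, and the builds GRCh38 and GRCm38, are named in the submitters' processing notes, with no role. Use of strand is not given in the sources used here. Whole reads were recovered by dividing by the value of 1 read. All values up to 200 were whole multiples within 0.01 normalised counts, and at least 99.934% of all nonzero values within 0.1 reads. For GFP replicates 1 and 2 that value is close to 1 and rests on 23442 and 13583 values that differ from whole numbers. Groups came from the sample titles.

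Genes with at least 10 normalised counts in at least 2 libraries were tested (18828 genes) by limma 3.58.1 with trend, in R 4.3.3. The scale was log2(value + 1), which shrinks the changes of low genes. All 11 libraries entered 1 fit. A call is a Benjamini-Hochberg adjusted p under 0.05 across those 18828 genes. A fold is a ratio of group means. edgeR 4.0.16 (TMM) and DESeq2 1.42.0 on recovered reads were alternatives, with other scalings, pseudocounts, filters, a replicate block and each library left out. The procedure was tested on simulated data with changed genes drawn from above the filter, since fewer were recovered when low genes were included, so power for low genes such as EGR3 is lower. For named genes outside the 10, and for the heat shock and proliferation lists, the alternatives were chosen after seeing the data. The 10 genes and the lists were chosen with earlier results of these data known. From each list the 3 largest rises and falls that passed per line were named, except 1 gene that is not reported here, and for EGR1, FOSL1 and ATF3 the 3 genes with the highest correlation over libraries.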

Additional observations from a re-analysis of the deposited data

How the results depend on the processing

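Of 70 results for a single gene of the 10 in a comparison, 50 kept direction and call under every alternative run, and 20 changed in at least 1. The direction of EGR3 with Oct4 was reversed without GFP replicate 1, and also with OSK replicate 1 left out as well (0.66 in both). FOSB in OSK against Oct4 turned to 0.10 without OSK replicate 1, alone or with GFP replicate 1, and EGR3 in OSK against Klf4 to 0.56 without OSK replicate 2. Leaving out 1 library at a time, these changes ranged from -1.38 to 0.66, from -1.18 to 0.10 and from -1.10 to 0.56. The reversed values did not pass the test. Calls were gained by limma for EGR2 in OSK against Klf4 without Klf4 replicate 2 (1.82, adjusted p = 0.00925) and for FOSB in OSK without OSK replicate 2, against Oct4 (0.0165) and Klf4 (0.00828). ATF3 with Sox2 passed without GFP replicate 1 and OSK replicate 1 (-0.41), and EGR3 in OSK without GFP replicate 2 (limma adjusted p = 0.0443). Against Sox2, EGR3 in OSK passed with TMM scaling (limma adjusted p = 0.0483) and a pseudocount of 5 (0.0371). It passed also with only these groups fitted (0.0114) and without GFP replicate 1 and OSK replicate 1 (-3.81). In both of these settings EGR3 reached the filter level only in the Sox2 libraries, in which it was high. With TMM scaling and a pseudocount of 5, GFP replicate 1 alone reached it besides them. None of these passes against Sox2 is read as a result. With no filter more features were tested, and the share of genes called fell to 12%, 13.9%, 10.5% and 13.1% for Oct4, Sox2, Klf4 and OSK against GFP, and to 13.4%, 13.3% and 6.35% for OSK against Oct4, Sox2 and Klf4. Leaving out 1 library gave 13.4% to 17.1% of genes called for OSK against Klf4, 12 to 19 regulators called with Sox2, 4 to 8 heat shock genes with Klf4 and 5 to 9 proliferation genes with Oct4. A line left with 1 library was assumed to vary like the others. Of the 10 genes, 5 to 10 were called with Sox2 over the alternatives, and 9 with Klf4 and 8 with OSK under each that kept all replicates.

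With the replicate number as a block, FOSB (limma adjusted p = 0.0554) and JUNB (0.103) with Sox2 lost their calls, as did RPS6KA5 in OSK (0.0548). Whether the numbers pair the libraries cannot be told from these data. Deviations of same-numbered libraries correlated at 0.435 and 0.31 between GFP and OSK, which hold the 2 libraries that stand apart. Between the other groups they correlated at -0.069 to 0.042. In groups of 2 libraries the deviations mirror each other, so both numbers give the same correlation. EGR3 had 27 reads in the Sox2 libraries together and 21 in GFP, which limits what can be detected in it.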

Other observations

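The genes whose levels over the 11 libraries were most like those of 3 of the genes were listed by Pearson correlation of log2(value + 1), as a description. The points share libraries and groups, so the correlations have no test. For EGR1 they were TBX2 (r = 0.988), a T-box repressor, PAWR (0.987), a pro-apoptotic regulator, and NAT14 (0.975). TBX2 had 269 ± 24.9 normalised counts (SD, n = 3) in GFP and 123 ± 8.70 (n = 2) in the Klf4 line, and PAWR 4830 ± 385 and 2550 ± 16.2, so both spanned a smaller range than EGR1. For FOSL1 they were PARD6G (0.979), EGR1 itself (0.967) and the antisense gene BOLA3-AS1 (0.965), whose reads may belong to the opposite strand. For ATF3 they were PLEKHO1 (0.984), CSRP2 (0.975) and RFLNB (0.975). RFLNB had 1350 ± 49.6 normalised counts in GFP, 2570 ± 219 in the Oct4 line and 513 ± 126 in the Klf4 line.

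Among the 45 pairs of the 10 genes, r was above 0 in 32 and below 0 in 13, with a median of 0.44. EGR1 and FOSL1 (0.967), FOSB and JUN (0.919) and EGR1 and JUN (0.900) were the closest pairs. JUNB ran against FOSL1 (-0.816), EGR1 (-0.772) and ATF3 (-0.746). FOS and EGR1, often induced together, had r = 0.479.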
